A study of Rattus norvegicus with 24 samples.

Results

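Whole retinal tissue (RT) was compared with whole brain tissue (BT) of the same adult rats, to show which genes set these parts of the central nervous system apart. The comparison uses 6 RT and 6 BT arrays, 12 of the 24 arrays of the series, chosen by the tissue named in their labels, and all 18166 genes that are listed under a single symbol. The animals were 6 untreated male Wistar rats, an outbred albino strain, aged 12 weeks. RNA came from cryosections of a frozen eye or of a frozen brain hemisphere, and the remaining sections of the same organs gave the retinal (RMV) and brain (BMV) microvessels of the other 12 arrays. Before freezing, white matter, choroid plexus, meninges and surface vessels had been taken off the brains. Whether the retina had been freed from the other layers of the eye is not given in the sources used here. Each array measured 1 RNA sample on the Affymetrix Rat Gene 2.0 ST platform, which holds probes along whole transcripts. All values below are log2 signals, so that a difference of 1 is a 2-fold difference, and the signal of a gene can be set against its own signal in other samples but not against that of another gene.

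The retina is a thin sheet of brain-derived tissue with a small set of neuron classes. Rods and cones catch light with a visual pigment that activates the G protein transducin, which activates a phosphodiesterase that lowers cyclic GMP and lets cyclic nucleotide-gated channels close. Their terminals hold synaptic ribbons, which feed transmitter release without pause, and bipolar cells carry the signal to amacrine and ganglion cells, whose axons leave the eye. Müller cells are the main glia of the retina, whereas the brain holds astrocytes and oligodendrocytes. In the rat, as in most mammals, axons within the retina carry no myelin.

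The 6 arrays of a group lay close together, with a median standard deviation over genes of 0.154 in RT and 0.153 in BT, and the number of arrays limits the precision. Median signals over all probe clusters ran from 6.10 to 6.22 in RT and from 5.81 to 5.95 in BT, whereas over the named genes the highest were 7.03 and 7.09. RT replicate 5 stood apart from the other RT arrays. It lay at least 1 log2 unit above the highest other RT array for 36 genes, while each of the other 5 RT arrays did so for 0 to 2 genes and each BT array for 1 to 5. Among these 36 genes were Rpe65, Rgr, Tyrp1, Slc16a8, Mfrp and Ttr, most of which are known from the pigment epithelium behind the retina. They also held Gja1 and Slc7a10, listed here for astrocytes, and Ermn, listed for oligodendrocytes. Which cells gave these signals was not tested. Other pigment epithelium genes, such as Rrh and Best1, stayed within the range of the other RT arrays. Results that rest on such genes are given with and without this array.

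In RT, 1143 genes were higher expressed (6.29% of all genes) and 2025 were lower expressed (11.1%) than in BT, with an adjusted p under 0.05 by limma and a 2-fold change or more. The RT and BT arrays did not overlap for 3144 of these 3168 genes, and 48.8% of all 18166 genes had no overlap. The median difference over all genes was 0.02. The balance turned with the size of the difference. At a log2 difference of at least 2 (4-fold) 342 genes were higher in RT and 533 lower, and at 3 (8-fold) 156 and 145. At 4, which is 16-fold, 84 genes were higher in RT and 39 lower, and at 6, which is 64-fold, 25 were higher and 2 lower. Genes higher in RT made up 36.1% of the genes past both thresholds. That share depends on the scale set between tissues, with 991 higher and 1815 lower genes after quantile normalization, 755 and 2927 with arrays centred on the median of all clusters, and 2242 and 1294 with arrays centred on the 3 reference genes B2m, Actb and Hprt1. These scales moved the median of all genes to -0.10, -0.24 and 0.34. The reference genes themselves differed between the tissues as deposited, B2m by -0.80, Actb by -0.81 and Hprt1 by 0.65. The scale set by them thus rests on genes that were not constant.

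**Figure D1:**
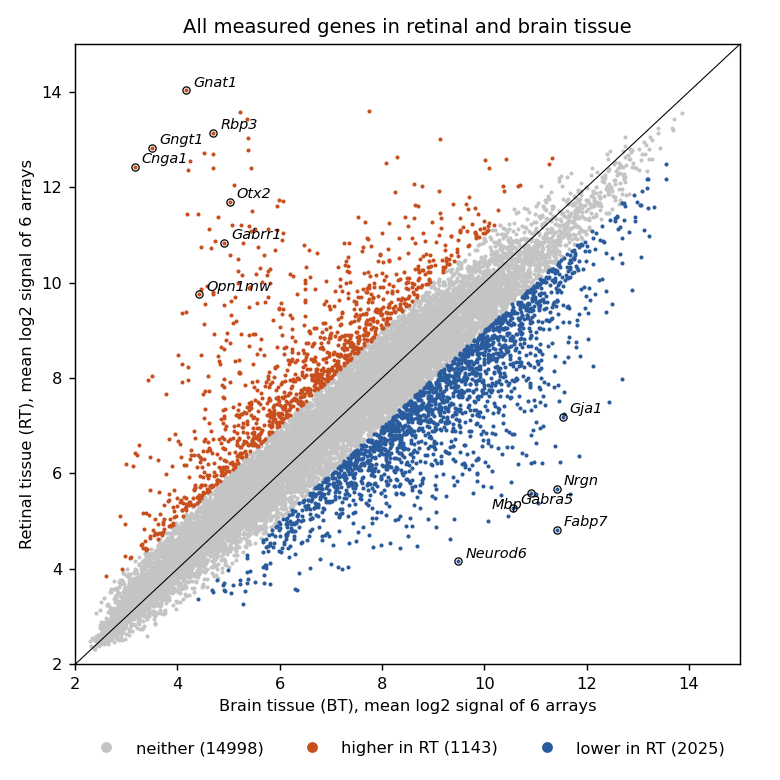
Mean log2 signal of each of the 18166 genes in BT (x axis) and RT (y axis), 6 arrays each. Orange points are the 1143 genes higher in RT, blue points the 2025 lower, grey points all others, the line marks equal signals, and the circled rod genes Gnat1, Gngt1 and Cnga1 lie farthest above it.

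The genes of rod phototransduction showed the widest gap between the tissues. All 10 measured members were higher in RT without overlap, and their median log2 difference was 7.86. Over all genes, 6.29% were higher and 48.8% had no overlap. Gnat1, the alpha subunit of rod transducin, was the gene with the largest difference of all. Its lowest, median and highest signals were 13.99, 14.01 and 14.12 in RT and 3.98, 4.19 and 4.29 in BT, a log2 difference of 9.85 ± 0.11 (SE) or 925-fold, with an adjusted p of 3.00e-30. Gngt1, the gamma subunit of the same G protein, ranged over 12.70, 12.81 and 12.94 in RT and 3.23, 3.43 and 3.79 in BT and differed by 9.31 ± 0.09. For Cnga1, a subunit of the rod channel gated by cyclic GMP, the signals were 12.36, 12.40 and 12.56 against 2.85, 3.16 and 3.45, a difference of 9.26 ± 0.09. All 6 RT arrays thus lay far above every BT array for each of these genes. Both catalytic subunits of the rod phosphodiesterase, Pde6a and Pde6b, were higher by 7.65 and 7.40. The rod proteins that end the response were also among the higher genes, with 8.07 for arrestin (Sag), 5.66 for the kinase Grk1 and 8.31 for phosducin (Pdc), which binds transducin. The sodium-calcium exchanger Slc24a1 was higher by 6.03, and the second channel subunit Cngb1 had the smallest difference of the group, 5.17. BT signals of the rod genes were in the lower part of the scale, from percentile 3.7 of all genes for Cnga1 and 11.6 for Gnat1 to 34.5 for Grk1. No background level was available, so that the fold values depend on how low signals read on these arrays. In tissue RNA, fewer cells of a type and less RNA per cell cannot be told apart, and this holds for every difference given here.

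Cone genes differed by less. All 10 were higher in RT without overlap, beside 6.29% of all genes higher and 48.8% without overlap. Their median log2 difference was 4.21. The middle-wavelength opsin Opn1mw had signals of 9.57, 9.74 and 10.01 in RT and 4.28, 4.38 and 4.72 in BT (lowest, median, highest), a difference of 5.34 ± 0.11 or 40.5-fold. For the short-wavelength opsin Opn1sw the signals were 8.86, 9.66 and 10.23 against 4.27, 5.04 and 5.27. That gene differed by 4.62 ± 0.20, and its RT arrays were spread more widely than those of Opn1mw. The cone transducin subunits Gnat2, Gnb3 and Gngt2 were higher by 4.29, 5.30 and 3.12, the phosphodiesterase subunits Pde6c and Pde6h by 4.03 and 4.13, and cone arrestin (Arr3) by 4.52. Both cone channel subunits closed the list, with 2.66 for Cngb3 and 1.49 for Cnga3, whose RT signals of 4.55, 4.80 and 5.27 stayed low on the scale.

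Of 9 genes listed for rods and cones alike, 8 were higher in RT, beside 6.29% of all genes. The calcium sensors recoverin (Rcvrn) and Guca1a differed by 8.20 and 7.71, and Guca1b by 5.75. Guca1a and Guca1b act on the guanylate cyclases that restore cyclic GMP. Of the cyclases, Gucy2f was higher by 7.25 and Gucy2d by 4.58. The listed gene Gucy2e overlapped between tissues, differed by 0.39 and did not pass the fold threshold. Whether Gucy2e acts in photoreceptors was not tested. The complex that switches transducin off had smaller differences, 2.31 for Rgs9, 1.12 for Gnb5 and 1.11 for Rgs9bp. Rgs9 is also a known gene of striatal neurons, and its BT arrays ranged from 9.91 to 10.19.

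Among 17 genes of the outer segment and its connecting cilium, 15 were higher in RT, beside 6.29% of all genes. Their median difference was 5.62. The disc rim proteins Prph2 and Rom1 were higher by 8.34 and 5.85, with Prph2 signals of 13.51, 13.57 and 13.61 in RT against 5.12, 5.21 and 5.39 in BT. Abca4, which clears retinal products from discs, differed by 6.96. The axonemal protein Rp1 differed by 8.15, the kinase Mak by 6.59 and the chaperone Aipl1 by 5.64. Impg1, a proteoglycan of the matrix around outer segments, was higher by 7.02, and its relative Impg2 was 255-fold higher. Tulp1, Cdhr1, Rpgrip1, Reep6 and Fam161a, proteins of the outer segment and the cilium, were higher by 4.85, 4.45, 3.98, 3.87 and 3.50, and Pcare, which acts where discs form, by 5.62. Rpgr and Cfap418 were measured and did not pass the fold threshold, with differences of 0.19 and 0.66. Pde6g and Nr2e3 were not analysed here.

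**Figure D2:**
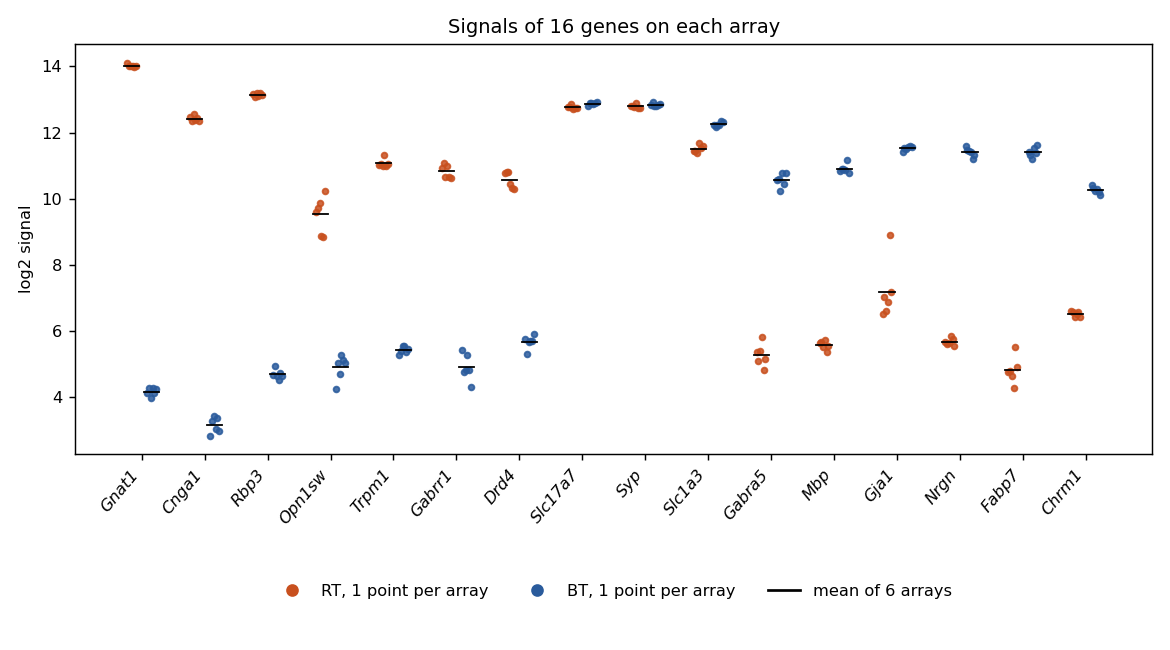
Log2 signal (y axis) of 16 genes on each of the 6 RT (orange) and 6 BT (blue) arrays, with the mean of each group as a line. Photoreceptor and inner retinal genes at the left are high in RT alone, Slc17a7 and Syp overlap, and genes of myelin, astrocytes and forebrain neurons at the right are high in BT.

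Since photoreceptor genes were higher together, their promoters were read for the motif TAATCC or its reverse complement GGATTA, which the photoreceptor factor CRX is known to bind. Promoters were the 250 bases before and 50 bases after the start in RefSeq (GRCr8). Of the 46 genes in the 4 photoreceptor lists, 36 had a promoter in that table, and 9 of these (25.0%) held the motif on either strand. Over all 27457 promoters of the same length the share was 7.11%, and over the promoters of all measured genes 6.25%. Among genes higher in RT 84 of 916 promoters held it (9.17%), and among genes lower in RT 59 of 1583 (3.73%). Of 3 other lists, bipolar cells had it in 2 of 11 promoters (18.2%) and oligodendrocytes and myelin in 2 of 13 (15.4%). The postsynaptic density had it in 0 of 11. These lists are small, and a share above that of all promoters was not limited to photoreceptor genes. A match shows only that these letters are present, and 27 of the 36 photoreceptor promoters do not hold them. Stretches of 100 bases are printed for 3 of the 9 genes, to show the motif near the start of Cngb1 and Gucy2f, where it occurs 2 times each, and farther away in Gngt1. They read 5′ to 3′ on the strand of the gene, with the motif in capitals. The Gngt1 stretch covers chr4:32960695-32960794 on the plus strand (250 to 151 bases before the start), that of Cngb1 chr19:9732546-9732645 on the plus strand and that of Gucy2f chrX:110605018-110605117 on the minus strand (both 100 to 1 bases before the start).
Gngt1: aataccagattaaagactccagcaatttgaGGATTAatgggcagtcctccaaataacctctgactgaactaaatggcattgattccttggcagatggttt
Cngb1: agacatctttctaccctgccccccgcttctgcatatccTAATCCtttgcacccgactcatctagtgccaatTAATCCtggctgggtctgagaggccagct
Gucy2f: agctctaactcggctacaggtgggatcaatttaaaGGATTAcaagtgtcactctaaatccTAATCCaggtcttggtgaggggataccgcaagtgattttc

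Genes of the visual cycle, which returns the bleached chromophore to its light-sensitive form, fell into those of photoreceptors and Müller cells and those of the pigment epithelium. In all, 10 of 13 were higher in RT, beside 6.29% of all genes, with a median of 2.29. Rbp3, the retinoid carrier of the space around outer segments, was higher by 8.45, and the photoreceptor dehydrogenases Rdh8 and Rdh12 by 4.89 and 4.58. Rlbp1, the retinal-binding protein of Müller cells and pigment epithelium, had signals of 10.95, 11.00 and 11.17 in RT and 7.80, 8.01 and 8.15 in BT and was higher by 3.02. Rrh, an opsin of the pigment epithelium, was higher by 5.27. Several pigment epithelium genes were spread widely over RT arrays. Rpe65, the isomerase of the cycle, had RT signals of 6.46, 6.72 and 9.57, with the highest on replicate 5, against 4.94, 5.23 and 5.82 in BT. Its difference was 1.97 ± 0.39 with all arrays and 1.51 without that array. For Rgr the differences were 2.86 with all arrays and 2.35 without it, and for Lrat, which loads retinol onto lipid, 1.89 and 1.47. Rdh5 passed the thresholds with all arrays (1.01) and no longer without replicate 5 (0.61), which left 9 of 13 visual cycle genes.

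The same array lay apart for several genes of pigment cells and of secretory epithelia. Of 13 genes of pigment epithelium and melanocytes 7 were higher in RT, 6 without replicate 5, and Mitf was lower (-1.10). Over all genes 6.29% were higher and 11.1% lower. The pigment enzymes Tyrp1 and Dct differed by 2.81 and 3.72, and by 2.30 and 3.49 without it, whereas tyrosinase (Tyr) differed by -0.47, with overlap. Of 9 genes listed for choroid plexus, 7 were higher in RT with or without this array, beside 6.29% of all genes. That list, however, is led by Otx2 (6.68), a factor of photoreceptors and bipolar cells. The thyroid hormone carrier Ttr had signals of 8.50, 8.88 and 11.71 in RT and 5.86, 6.08 and 6.32 in BT, a difference of 3.37 ± 0.39, or 2.92 without replicate 5. The bicarbonate transporter Slc4a5 differed by 2.94 and the potassium channel Kcnj13 by 1.65, or 2.75 and 1.27 without it. Choroid plexus had been removed from the brains. Ttr and Kcnj13 are also known from the pigment epithelium. Which cells gave the signals of the choroid plexus genes in RT was not tested. The summed signal of the 13 pigment genes ran from 10.49 to 12.82 over RT arrays, with a median of 10.67, and from 9.96 to 10.26 in BT. How much pigment epithelium each retinal section carried was not tested.

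**Figure D3:**
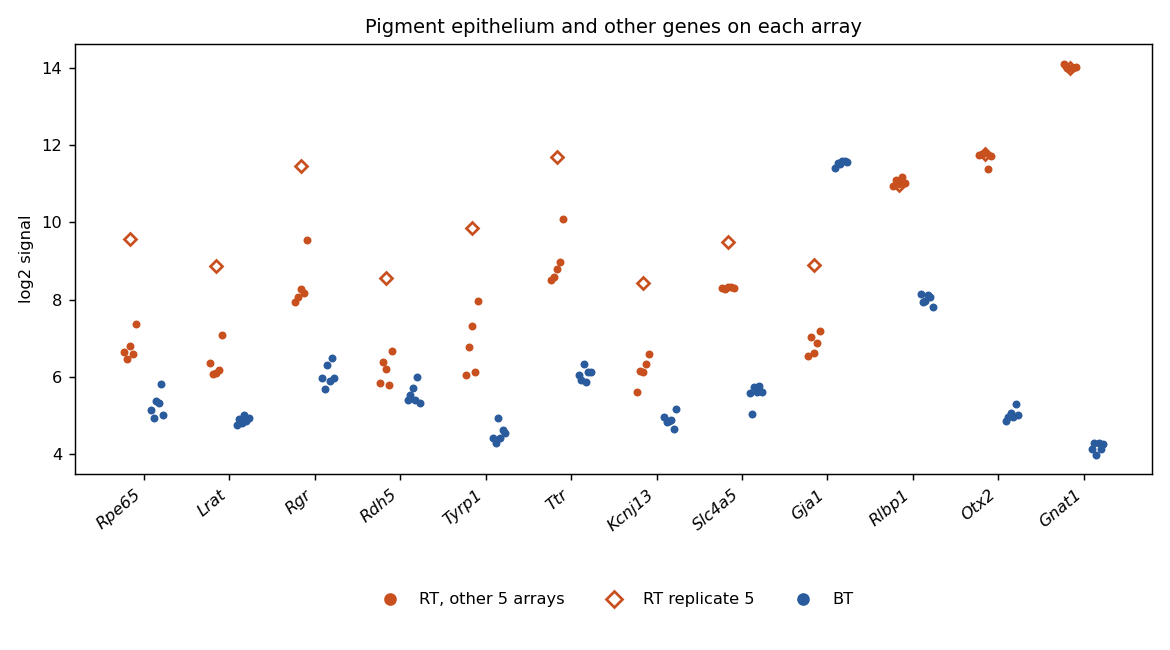
Log2 signal (y axis) of 12 genes on the RT arrays (orange points, replicate 5 as open diamonds) and BT arrays (blue). For Rpe65 replicate 5 lies at 9.57 and the next RT array at 7.37, and for Ttr at 11.71 and 10.08, while Rlbp1, Otx2 and Gnat1 show no such gap.

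Transcription factors separated the tissues in both directions. Of 18 factors of the retina, 15 were higher in RT, and of 19 factors of the forebrain, 16 were lower. Over all genes 6.29% were higher and 11.1% lower. Counts of list members in the paragraphs below are to be read beside these shares. Crx, which drives photoreceptor genes, had signals of 10.33, 10.49 and 10.96 in RT and 4.80, 4.96 and 5.52 in BT and was 46.4-fold higher. Otx2 acts upstream of it and was 102-fold higher. The bHLH factors Neurod4 and Neurod1 were higher by 6.50 and 3.46, the rod factor Nrl by 2.81 and Prdm1, which in the mouse favours photoreceptor over bipolar fate, by 3.54. The eye field genes Pax6, Rax, Six6 and Six3 had smaller differences of 2.45, 2.34, 2.14 and 1.47. Lhx2, Sall3 and Ptf1a did not pass the fold threshold. On the side of the brain, Neurod6 had signals of 3.97, 4.16 and 4.38 in RT and 9.37, 9.49 and 9.63 in BT and differed by -5.33, and Tbr1 by -4.19, both factors of excitatory cortical neurons. Bcl11b and Foxp2, factors of deep cortical and striatal neurons, differed by -2.81 and -2.52, and Dlx1 and Emx2, factors of forebrain patterning, by -2.02 and -1.55.

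Bipolar cell genes were higher in RT for 12 of 14 members, where 6.29% of all genes were higher, with a median of 2.70. The largest differences were found for the channel Trpm1, with signals of 10.98, 11.04 and 11.33 in RT and 5.27, 5.44 and 5.56 in BT and a difference of 5.63 ± 0.10, for Sebox (4.47) and for Gpr179 (4.20). Trpm1, Gpr179, Nyx (2.41) and the glutamate receptor Grm6 (3.11) form the cascade by which ON bipolar cells respond to light, and its regulator Rgs11 was higher by 1.62. Rgs7, which acts with Rgs11 and is also a brain gene, differed by -0.19 with overlap. Prkca, a common stain of rod bipolar cells that the brain also expresses, was 0.59 higher without overlap and stayed under the fold threshold. The calcium-binding proteins Scgn and Cabp5, found in cone and rod bipolar cells, were higher by 3.36 and 2.99, and Pcp2 by 3.92. The bipolar cell factors Bhlhe23 and Vsx1 were higher by 2.28 and 1.68.

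For amacrine and horizontal cells, 9 of 16 genes were higher in RT and 1 was lower, beside 6.29% and 11.1% of all genes. The factors Tfap2b and Tfap2a, which mark amacrine cells, were 41.9-fold and 22.4-fold higher. Calretinin (Calb2) differed by 3.65, Barhl2 by 2.55, the horizontal cell factor Prox1 by 2.30, tyrosine hydroxylase (Th) of dopaminergic amacrine cells by 2.05 and the glycine transporter Slc6a9 by 1.38. Genes of GABA neurons in general did not follow. Gad1 signals were 9.95, 10.20 and 10.35 in RT and 9.90, 10.14 and 10.34 in BT, a difference of 0.01, Slc32a1 differed by 0.40, and Gad2 was lower in RT (-1.26). Ganglion cell genes were divided, with 8 of 14 higher and 3 lower. Pou4f1 and Pou4f2, factors of ganglion cells, were higher by 2.88 and 1.53, melanopsin (Opn4) by 1.99 and the RNA-binding protein Rbpms2 was 3.48-fold higher. The 3 lower genes, Thy1 (-1.48), Nefl (-1.38) and Nefm (-1.79), are general genes of projection neurons that the brain expresses widely.

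Glial genes were lower in RT for most lists. Of 13 astrocyte genes, 11 were lower, where 11.1% of all genes were lower. The gap junction protein Gja1 had signals of 6.53, 6.96 and 8.90 in RT and 11.40, 11.55 and 11.58 in BT, a difference of -4.34 ± 0.24, and -4.68 without RT replicate 5, the highest RT array. Its partner Gjb6 differed by -3.61, the calcium-binding protein S100b by -3.05 and the filament protein Gfap by -2.35. The water channel Aqp4 was nearest to the threshold with -1.03, and Mlc1 (-0.87) and Aldoc (0.18) did not pass. Of 10 Müller cell genes, 4 were higher in RT, namely Rlbp1, the carbonic anhydrase Car14 (3.84), Dkk3 (1.29) and vimentin (Vim, 1.24), and 1 was lower, the lipid carrier Apoe (-1.25). The glutamate transporter Slc1a3, which Müller cells and astrocytes share, was at 11.39, 11.49 and 11.69 in RT and 12.18, 12.23 and 12.36 in BT, a difference of -0.74 that did not reach the fold threshold. Glul was not analysed here. Fabp7, the fatty acid-binding protein of radial glia and astrocytes, was the gene with the largest difference in favour of BT, with 4.28, 4.79 and 5.51 in RT, 11.19, 11.41 and 11.64 in BT and a difference of -6.59 ± 0.16 or 96.5-fold.

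Myelin genes formed the list with the lowest median, -3.93. Of 19 genes of oligodendrocytes 18 were lower in RT, and of 7 genes of their precursors 6 were lower, although white matter had been removed from the brains. Myelin basic protein (Mbp) had signals of 5.38, 5.61 and 5.75 in RT and 10.77, 10.89 and 11.18 in BT, a difference of -5.32 ± 0.09. Opalin, a membrane protein of oligodendrocytes, differed by -5.43, Ugt8, which makes myelin galactolipids, by -4.78, Mag by -4.46 and Cldn11 by -4.33. No RT array reached the lowest BT array for any of these. Gpr37 differed by -0.44 and did not pass the fold threshold. Of the precursor genes, Gpr17 and Bcas1 were lower, with differences of -4.38 and -3.75.

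**Figure D4:**
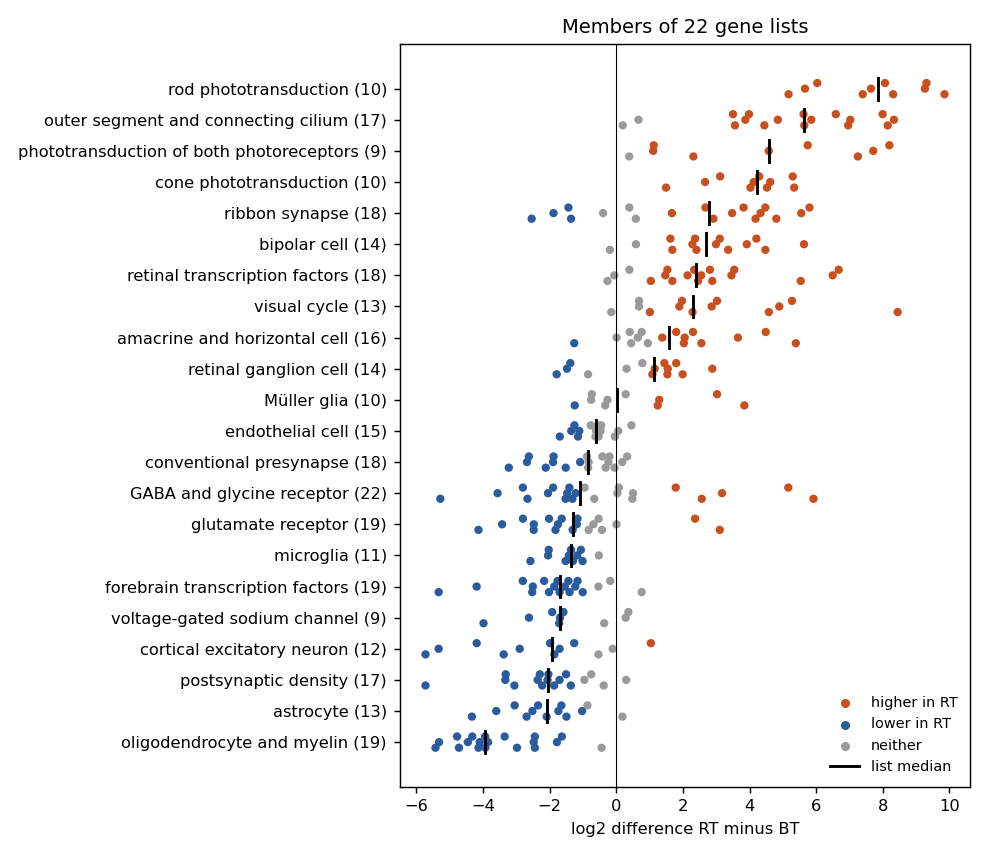
Log2 difference RT minus BT (x axis) of each measured gene in 22 lists, whose sizes stand in parentheses, in orange where higher in RT, blue where lower and grey where a threshold was missed. Black bars are list medians, which run from 7.86 for rod phototransduction to -3.93 for oligodendrocytes and myelin, beside 0.02 over all genes.

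Genes of forebrain neurons were lower in RT as well. Among 12 genes of cortical excitatory neurons 9 were lower, and 1 was higher, Rorb (1.04), a factor of cortical layers that mouse photoreceptors also need. Neurogranin (Nrgn), a calmodulin-binding protein of dendrites, had 5.55, 5.66 and 5.85 in RT, 11.20, 11.44 and 11.61 in BT and a difference of -5.73 ± 0.08. The zinc transporter of synaptic vesicles Slc30a3 differed by -2.90. The vesicular glutamate transporter Slc17a7, by contrast, overlapped, with 12.71, 12.76 and 12.86 in RT and 12.80, 12.89 and 12.92 in BT. Photoreceptors and bipolar cells are known to load vesicles with this transporter. Of 11 striatal genes 6 were lower, among them Adora2a (-2.69), Ppp1r1b (-2.79) and Rasd2 (-3.30), and Rgs9 was higher. Of 18 genes of cortical interneurons and neuropeptides 11 were lower, led by Npy (-2.79), Cck (-2.79) and Nts (-2.70), while Pvalb (-0.11) and Scg2 (0.49) did not pass. Genes of thalamus and hypothalamus (2 higher of 12), cerebellum (2 higher and 1 lower of 10) and monoamine neurons (1 higher and 1 lower of 9) are to be read beside the 17.4% of all genes that passed in either direction. The cerebellar granule cell gene Gabra6 was low in BT, with 3.63, 4.24 and 4.56.

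Receptors for GABA and glycine changed place between the tissues. Of 22 genes 5 were higher in RT and 11 lower, beside 6.29% and 11.1% of all genes. The 3 Gabrr subunits, which make up the GABA receptors of bipolar cell terminals, were all higher. Gabrr1 had signals of 10.63, 10.80 and 11.09 in RT and 4.31, 4.83 and 5.45 in BT, a difference of 5.92 ± 0.15, and Gabrr2 and Gabrr3 were higher by 5.16 and 2.56. The glycine receptor subunits Glra1 and Glra4 were higher by 3.17 and 1.78, and Glra2 (0.48) stayed under the threshold. The brain side was led by Gabra5, a subunit of receptors outside synapses in the hippocampus and cortex, with 4.83, 5.26 and 5.82 in RT, 10.25, 10.58 and 10.78 in BT and a difference of -5.28 ± 0.14. Gabrg1 (-3.57), Gabrb1 (-2.81), Gabra4 (-2.67), Gabra2 (-2.05) and Gabbr2 (-1.90) followed, and the beta subunit shared by glycine receptors, Glrb, was lower as well (-1.41). The other lower subunits were Gabra3 (-1.52), Gabrb2 (-1.48), Gabrd (-1.32) and Gabrg3 (-1.22). Gabbr1 (-0.95), Gabrq (0.50), Gabre (0.07) and Gabrp (0.03) did not pass, and neither did Gabra6.

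Of 19 glutamate receptor genes, 2 were higher in RT, Grm6 and the kainate receptor Grik1 (2.36), which OFF bipolar cells use, and 12 were lower. Grm6 had 9.37, 9.62 and 9.79 in RT and 6.40, 6.49 and 6.63 in BT. The metabotropic receptor Grm3 stood at the other end, with 6.72, 7.01 and 7.32 in RT, 11.05, 11.15 and 11.22 in BT and a difference of -4.14 ± 0.08. The NMDA receptor subunits Grin2b, Grin2a, Grin3a, Grin2c and Grin1 were lower, with differences of -3.43, -2.80, -2.02, -1.64 and -1.19, whereas Grin2d (-0.43) and Grin3b (0.00) did not pass. The AMPA receptor subunit Gria3 and the metabotropic receptor Grm5 differed by -2.48 and -2.48, and the kainate receptor subunits Grik3, Grik2, Grik4 and Grik5 by -1.83, -1.75, -1.31 and -1.17. Gria4 (-0.83), Grm2 (-0.69) and Grm8 (-0.53) stayed under the fold threshold. Gria1 and Gria2 were not analysed here. Of 24 receptors for monoamines and acetylcholine 1 was higher in RT and 8 were lower, beside 6.29% and 11.1% of all genes. The higher gene was the dopamine receptor Drd4, which photoreceptors express, with 10.31, 10.62 and 10.81 in RT, 5.33, 5.71 and 5.92 in BT and a difference of 4.90 ± 0.11 or 29.8-fold. Drd1 and Drd2 differed by -0.75 and 0.83, under the fold threshold. The muscarinic receptor Chrm1 had the largest difference in favour of BT in this list, -3.74, followed by the serotonin receptors Htr2a (-2.13) and Htr1a (-2.10).

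The release machinery showed a like exchange within gene families. Of the complexins, which clamp and trigger vesicle fusion, Cplx4 and Cplx3 were higher in RT by 5.80 and 2.92 while Cplx1 and Cplx2 were lower (-2.63 and -1.52). Cplx4 had signals of 10.86, 11.23 and 11.45 in RT and 5.20, 5.41 and 5.58 in BT. Syntaxin 3 (Stx3), the syntaxin of ribbon synapses, was higher by 3.48, and syntaxin 1a (Stx1a), which conventional synapses use, was lower (-3.23). Stx1a signals were 8.20, 8.34 and 8.47 in RT and 11.43, 11.54 and 11.69 in BT, so that arrays of the tissues did not overlap for either syntaxin. Altogether 11 of 18 ribbon synapse genes were higher, among them the subunits of the photoreceptor calcium channel Cacna1f (5.55) and Cacna2d4 (4.81), its partner Cabp4 (4.18) and Ctbp2 (2.67), whose product RIBEYE builds the ribbon. The 4 lower members, Rims1 (-2.54), Erc2 (-1.89), Bsn (-1.44) and Pclo (-1.36), belong to the active zone of ribbon and conventional synapses alike. Of 18 conventional presynaptic genes 8 were lower, with -2.68 for Syn2 and -2.12 for Syn1, the synapsins that tether vesicles. Synaptophysin (Syp) overlapped, with 12.73, 12.79 and 12.89 in RT and 12.81, 12.85 and 12.92 in BT, and Snap25 (-0.42), Syt1 (-0.24) and Vamp2 (0.32) stayed under the fold threshold.

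**Figure D5:**
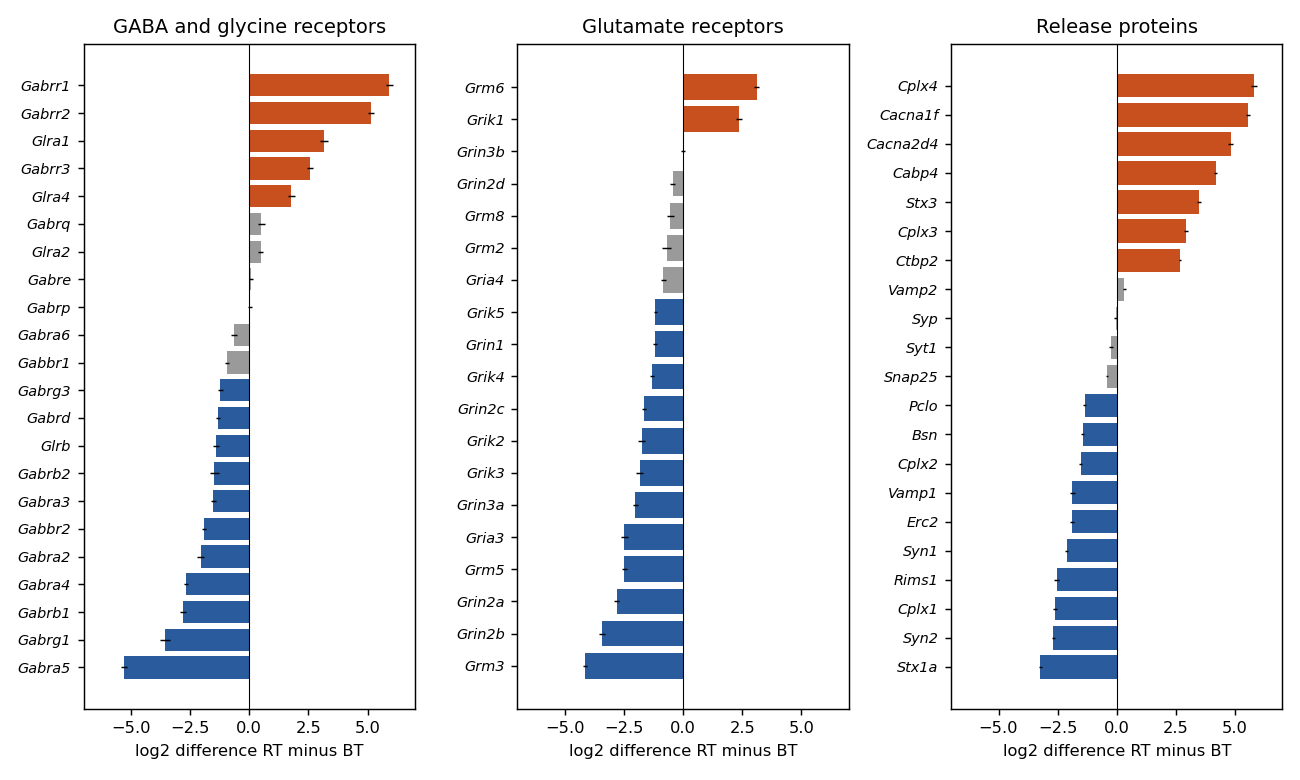
Log2 difference RT minus BT (x axis, bars) with its standard error (lines) for all measured GABA and glycine receptors, glutamate receptors and 21 chosen release proteins, in orange where higher in RT, blue where lower and grey where a threshold was missed. Gabrr1, Grm6 and Cplx4 head the retinal side, and Gabra5, Grm3 and Stx1a the brain side.

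On the receiving side, 13 of 17 genes of the postsynaptic density were lower in RT, with a median of -2.04. Of all genes 11.1% were lower. Baiap2 and Dlgap2, scaffolds of dendritic spines, differed by -3.32 and -3.06. Among the 15 genes with the largest differences in favour of BT were also Ddn (-5.49), Lrrc7 (-5.35) and Arpp21 (-5.25), known from dendrites and their spines, the kinase Ptk2b (-4.79), the potassium channel Kcnq5 (-5.08) and the guanine deaminase Gda (-4.89). Vxn, a factor of neuronal differentiation known from the frog, had the second largest difference in favour of BT, with 5.42, 5.59 and 5.72 in RT, 11.50, 11.69 and 11.80 in BT and a difference of -6.10 ± 0.08. Itih3 and Fam107a, both known from astrocytes, completed these genes with -5.66 and -4.94. Of 9 voltage-gated sodium channel genes 6 were lower, led by Scn4b (-3.99) and Scn2a (-2.62). Of 13 immediate early genes, which neurons switch on with activity, 5 were lower. Arc had 6.27, 6.40 and 6.71 in RT and 8.93, 9.80 and 10.68 in BT, and Egr1 7.03, 7.58 and 8.31 and 9.81, 10.53 and 11.02. BT arrays of these genes were spread over more than 1 log2 unit, but the lowest stayed above all RT arrays, and the differences were -3.33 ± 0.22 for Arc and -2.92 ± 0.22 for Egr1.

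Genes of microglia, vessels and connective tissue that passed the thresholds were mostly lower in RT. Of 11 microglial genes 10 were lower in RT, for example Gpr34 (-2.58), C1qa (-2.05) and P2ry12 (-2.03), with P2ry12 signals of 5.57, 5.98 and 6.22 in RT and 7.79, 7.99 and 8.17 in BT. With arrays centred on the reference genes, 6 of the 11 were lower. Of 15 endothelial genes 5 were lower, led by the transporter Slco1a4 (-1.70) and the tight junction gene Cldn5 (-1.35), while Vwf (-0.04) overlapped. With the reference genes 2 of the 15 were lower. Of 9 pericyte and smooth muscle genes 2 were lower (22.2%), beside 11.1% of all genes. Of 8 fibroblast genes 4 were lower, led by decorin (Dcn, -4.20), although meninges had been removed. None of 8 leukocyte and red cell genes passed both thresholds in limma's test, while 4 had an unadjusted p under 0.05. That count is to be read beside the 12961 of 18166 genes with an adjusted p under 0.05 by limma at any fold.

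Pathways that photoreceptors are known to rely on were read beside the 6.29% higher and 11.1% lower of all genes. Of 24 genes of the Bardet-Biedl complex and of intraflagellar transport, which move proteins into cilia, 10 were higher, led by Bbs7 (2.71), Bbs9 (2.61) and Ttc8 (2.30). With arrays centred on the median of all clusters 6 were higher. Of 13 glycolysis genes 3 were higher and 2 lower. Hexokinase 2 (Hk2) had 9.80, 10.07 and 10.21 in RT and 6.44, 6.46 and 6.71 in BT and differed by 3.55 ± 0.09, and the subunits of lactate dehydrogenase moved apart, with Ldha 1.75 and Ldhb -1.10. Of 13 genes for very long fatty acids and taurine 5 were higher, among them the taurine transporter Slc6a6 (2.80), Lpcat1 (2.61) and Elovl4 (2.43), and 4 were lower, among them the lipid transporter Mfsd2a (-1.76). Of 14 melatonin and clock genes 5 were higher, with 1.63 for Bmal1 and 1.30 for Asmt, the last enzyme of melatonin synthesis, and 1 was lower, Npas2 (-3.10), a partner of Bmal1 in the forebrain clock. Centred on the median of all clusters, 2 of the 14 were higher. Aanat, the enzyme before Asmt, overlapped (0.00). Of 15 retinoic acid genes 1 was higher (6.67%), Crabp1 (1.40), and 3 were lower, among them Rxrg (-2.12).

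Few markers of lens, cornea and muscle passed both thresholds. Of 9 lens genes 1 was higher in RT (11.1%), beside 6.29% of all genes. That gene, Cryba1, had 4.90, 5.46 and 7.79 in RT and 4.53, 4.63 and 4.85 in BT. Its highest array was RT replicate 4, and without that array the difference was 0.66 and the gene was not past the thresholds. The other lens genes included the crystallin Crygs (0.55) and the lens aquaporin Mip (0.26), and 6 of the 9 had an unadjusted p under 0.05. Of 6 cornea genes 1 was higher, Pax6, which the retina itself expresses, while the corneal keratin Krt12 differed by 0.10 and 3 of the 6 had an unadjusted p under 0.05. None of 8 skeletal muscle genes passed both thresholds in limma's test, while 6 had an unadjusted p under 0.05. These lens, cornea and muscle counts are to be read beside all genes. At any fold, 12961 of 18166 had an adjusted p under 0.05 by limma. Of 1344 olfactory and vomeronasal receptor genes, whose signals are at the floor of the scale in most tissues, 25 were higher and 5 lower, but 6 and 18 after quantile normalization, so no direction can be given for that family.

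Clusters for microRNA precursors were among the measured genes, and a few of them were chosen here after their values had been seen. Of 363 such clusters 35 (9.64%) were higher in RT and 6 (1.65%) lower. With arrays centred on the median of all clusters 16 were higher and 9 lower, so their balance rests on the scale. The arrays measure the precursor or its host transcript, not the mature microRNA. The mature sequences are printed from RefSeq (GRCr8) with the seed, bases 2 to 8, in capitals, since miR-182, miR-183 and miR-96 come from 1 cluster on chromosome 4 that photoreceptors are known to express, miR-204 and miR-211 share the seed UCCCUUU, and miR-219 is known from oligodendrocytes.
miR-182: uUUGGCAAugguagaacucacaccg
miR-183-5p: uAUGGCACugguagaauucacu
miR-96-5p: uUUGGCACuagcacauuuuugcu
miR-204-5p: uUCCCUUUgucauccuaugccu
miR-211-5p: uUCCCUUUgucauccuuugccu
miR-219a-5p: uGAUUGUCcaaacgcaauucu
The Mir182 cluster had signals of 5.68, 6.29 and 7.04 in RT and 3.08, 3.46 and 3.78 in BT, a difference of 2.89 ± 0.21. Mir183 was higher by 1.07, and Mir96 (0.95) missed the fold threshold, though its arrays did not overlap. Mir204 differed by 1.86 ± 0.28, while Mir211, with the same seed, overlapped (0.23). Mir219-2 was lower in RT (-1.39). All of these signals lay in the lower part of the scale.

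The microvessels of the same organs gave a second reading of retina against brain, on other arrays but from the same animals. Of the 1143 genes higher in RT, 532 (46.5%) were also higher in RMVs than in BMVs, which is 51.2% of the 1040 genes higher in RMVs, and 6 were lower. Of the 2025 genes lower in RT, 445 (22.0%) were also lower in RMVs, which is 46.7% of the 953 lower there, and 20 were higher. In RMVs, 5.72% of all 18166 genes were higher and 5.25% lower than in BMVs. Rod genes had a median difference of 7.10 between the microvessels, beside 7.86 between the tissues. Whether genes shared by both contrasts come from vessel cells or from other retinal or brain RNA in the microvessels was not tested. For Gnat1 the difference was 9.35 between microvessels, and for Mbp -2.12. For some genes the values of the contrasts lay far apart. Slc6a6 was 2.80 in the tissues and -0.25 in the microvessels, and Prom1, a protein of disc edges, 3.56 and -0.41. The difference between both contrasts was not tested for these genes.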

How the data were processed

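RNA of RT, BT, RMVs and BMVs of 6 rats was measured on 24 arrays. Per the labels and the study's methods, the authors normalized the arrays with Affymetrix Expression Console (version 4.0) and deposited log2 signals. How the signals were normalized and summarized, and on which annotation build, is not given in the sources used here. Detection calls and unnormalized signals were not used. Values were used as deposited. Of 36685 clusters, 18511 carry 1 gene symbol, 575 several and 17599 none, and the latter kinds were left out. Symbols were updated through Entrez identifiers for 18394 clusters. Where a gene had more than 1 cluster (291 genes), that with the highest mean was kept, which gave 18166 genes.

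All 24 arrays entered 1 linear model with 4 group means in limma 3.58.1 (R 4.3.3) with empirical Bayes moderation (20 residual and 5.73 prior degrees of freedom). The contrast was RT minus BT. A gene passed at a Benjamini-Hochberg adjusted p under 0.05 over all genes and a fold of at least 2, two-sided. The fit was tested on simulated arrays first. The 47 gene lists (45 by name, 2 by symbol prefix) overlap in members and were described by counts and medians without a set test. Named were the 15 largest differences in each direction, up to 6 members per list, some members against their list, all measured members of the rod, cone, bipolar cell, GABA and glycine receptor and glutamate receptor lists, and further genes chosen after their values were seen. Members and lists were chosen with earlier results of these data known. The labels number the replicates of each tissue as biological ones. No pairing was used.

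Alternatives were 3 other scales between arrays, averaging a gene's clusters, filters on low signal at the first quartile or the median, RT and BT arrays alone, the replicate number as a block, trend and robust moderation, array weights, limma's treat, a fold of 1.5 and leaving out each array.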

Additional observations from a re-analysis of the deposited data

Results flagged for a closer look

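An array was set apart from its group where its gap to the nearest of the other 5 arrays, divided by the range of all 6, was above 0.625, Dixon's 95% critical value for 6 samples. This held in 44 of 568 groups of 6 arrays, those of the 284 named genes in both tissues. Chance gives about 1 in 20, but the named genes include some chosen because an array stood apart, so the share cannot be read against it. Each value below is that share of the range.

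RT replicate 5 was the array apart in 13 of the 44 groups. It was the highest RT array for genes of the pigment epithelium and other epithelia, with shares of 0.706 for Rpe65, 0.876 for Slc16a8, 0.707 for Mfrp, 0.641 for Lrat, 0.680 for Rdh5, 0.952 for Slc4a5 and 0.648 for Kcnj13. Slc4a5, a bicarbonate transporter, was at 9.49 on this array and at 8.33 on the next. The lactate transporter Slc16a8 was at 9.02 and 7.08. The same array was highest for Gja1 (0.721), listed here for astrocytes, and for Impg2 (0.666) and Prom1 (0.705) of photoreceptors. It was the lowest RT array for Pde6h (0.726), Pcp2 (0.721) and Gpr17 (0.697).

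In the other RT arrays, replicate 1 was apart for Gnat1 (0.703) and Rgs7bp (0.655), and replicate 2 for Tyr (0.652), Dlx1 (0.670) and Mir219-2 (0.787). Replicate 3 was apart for Rdh12 (0.676). Replicate 4 was apart for Otx2 (0.803), Trpm1 (0.766), Cryba1 (0.699) and Pde1a (0.670). The Gnat1 gap was 14.12 against 14.03, so that a high share can stand for a small difference where a group is tight. Cryba1, a lens crystallin, was at 7.79 on replicate 4 and 5.77 on the next array.

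In BT, replicate 1 was apart for Prom1 (0.764) and Gabrq (0.684), and replicate 2 for Rom1 (0.676), Tyr (0.706), Slc4a5 (0.776), Cacna2d4 (0.632), Gpr34 (0.630) and Grik3 (0.651). Replicate 3 was apart for Six6 (0.726), Prox1 (0.811), Th (0.651), Hk2 (0.852), Wnt7a (0.697) and Mip (0.663). Replicate 4 was apart for Opn1mw (0.651), Drd1 (0.797), Kcnj14 (0.671) and Gabrg3 (0.802), and replicate 5 for Mbp (0.651), Pclo (0.776) and Sema6c (0.654). Drd1, a dopamine receptor of striatal neurons, was at 10.04 on replicate 4 and at 9.57 on the next BT array.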

How the results depend on the processing

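Of 6733 values of 284 named genes under 24 alternatives, 6640 kept their side of the thresholds, 66 no longer passed and 27 newly passed. Of the genes past the thresholds 0 values changed sign, while 53 values of 18 genes under the thresholds did. Higher and lower genes numbered 1143 and 2025 as reported, 755 and 2927 with arrays centred on the median of all clusters, 2242 and 1294 with the reference genes, 2792 and 3641 at a fold of 1.5, 739 and 1405 with limma's treat, and 662 and 1565 without genes below the median signal, which tests fewer genes. Centring on the median or the reference genes moved the median of all genes to -0.24 and 0.34, and the median filter to -0.18. Of the genes lower in RT on the centred scale, 925 were also lower in RMVs. Leaving out each array gave 1126 to 1171 higher and 2007 to 2040 lower genes. Single arrays ended a call near the threshold for Rdh5 (0.61 without RT replicate 5, and between 0.96 and 0.99 without RT replicate 6 or BT replicate 1, 4 or 6), Cryba1 (0.66 without RT replicate 4), Rorb (0.96 and 0.98 without RT replicates 1 and 4), Wnt7b (-0.98, -0.98 and -0.96 without BT replicates 2 and 3 and RT replicate 6), Mir183 (RT replicate 2) and Aqp4 (BT replicate 6). Mir96 newly passed without RT replicate 4 (1.05) or 6 (1.09). On the centred scale Gnb5, Rgs9bp, Vim and Sema3f also lost their calls, with the reference genes Mitf, Gad2, Apoe, Gabrd, Gabrg3, Grin1, Grik4, Grik5, Ldhb and Aqp4, and with treat Gabrb2, Rpe65, Slc16a8, Mfrp, Kcnj13 and Rgs13. With the reference genes 7 of 18 interneuron and neuropeptide genes and 5 of 24 monoamine and acetylcholine receptors were lower. Without genes below the median signal, which leaves out members that are dim over both tissues, 5 cone, 7 bipolar, 3 ganglion and 1 pigment cell genes were still called higher. The share of promoters with a motif was 59.7% for TAAT or ATTA and 2.16% for CTAATCC or GGATTAG over all promoters, and 80.6% and 11.1% in the photoreceptor lists. The cause of these changes was not tested, apart from the smaller number of genes under the filters. Whether the replicate numbers pair the arrays by animal is not given in the labels, and weak correlations cannot exclude it. Deviations of same-numbered RT and BT arrays correlated at -0.02 to 0.07, and 1 of 6 RT and 3 of 6 BT arrays correlated best with their own number. With the replicate number as a block 1143 genes were higher and 2025 lower, the same genes as without it. Since every number occurs in each group, the block leaves the differences unchanged and cannot decide on pairing. Signals near the floor of the scale have only an uncertain fold, and no background level could be set without detection calls.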

Other observations

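Gene families that share a symbol prefix and were not described above were picked from 138 families of at least 15 genes after their values had been seen, and are given as a description. Of 22 genes with the prefix Rgs, mostly regulators that shorten G protein signals, 6 were higher in RT (27.3%) and 8 lower (36.4%). Of all genes 6.29% and 11.1% were so. The prefix also takes in binding proteins of such regulators, Rgs9bp among the higher and Rgs7bp among the lower genes. Apart from Rgs9, the higher genes were led by Rgs11 and by Rgs13 (1.51), and the lower by Rgs10 (-2.92), Rgs7bp (-2.91) and Rgs4 (-2.80). Of 15 Kcnj genes, inward rectifier potassium channels, 4 were higher, led by Kcnj14 (3.24), and 5 lower, led by Kcnj3 (-2.99) and Kcnj16 (-2.82). Kcnj14 had signals of 10.82, 10.94 and 11.10 in RT and 7.58, 7.67 and 7.93 in BT, without overlap. Of 24 Pde genes, phosphodiesterases of cyclic nucleotides, 6 were higher, Pde3a (2.38) and Pde1c (2.06) beside the 4 photoreceptor subunits, and 5 lower, led by Pde1a (-3.94) and Pde2a (-3.37). Pde2a signals were 7.58, 7.84 and 8.34 in RT and 11.10, 11.28 and 11.34 in BT.

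Of 16 Syt genes, the synaptotagmins, 2 were higher and 6 lower, among them Syt17 (-4.05) and Syt5 (-2.67). Of 19 Wnt genes 5 were lower, Wnt7a (-1.63), Wnt4 (-1.53), Wnt2 (-1.47), Wnt9a (-1.40) and Wnt7b (-1.01). Of 19 Sema genes, the semaphorins, which guide axons, 2 were higher, Sema6c (2.08) and Sema3f (1.13), and 6 lower, led by Sema6d (-2.91), with 6.97, 7.38 and 7.79 in RT and 10.20, 10.28 and 10.33 in BT.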
